A study of Mus musculus with 2 samples.

Results

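The Mef2 genes and the class IIa histone deacetylase (HDAC) genes were followed in single nuclei of mouse gastrocnemius-plantaris (GP), a muscle group of the calf. The genes were chosen by symbol: Mef2a, Mef2c and Mef2d, and Hdac4, Hdac5, Hdac7 and Hdac9, 7 of the 27998 genes in the count matrices. One single-nucleus RNA-Seq library came from Ctrl mice, which carried Net39 fl/fl without Cre. The other came from cKO mice, which carried HSA-CreERT2 and Net39 fl/fl. Both groups were of a B6C3F1 background, had received tamoxifen and were 5 months old, 3 months after tamoxifen. The HSA promoter drives CreERT2 in skeletal muscle fibres, so satellite cells and the cells between fibres keep an intact Net39 gene, Plpp7. Its protein is a muscle-specific protein of the nuclear envelope. The first exon of Plpp7 is flanked by loxP sites, whereas the assay reads 3′ ends, so its UMIs need not show the deletion. The protocol states that 3 muscles were pooled per condition, whereas the sample titles name mouse 1, so it cannot be told whether a library stands for 1 animal or several, and each counts as 1 sample. No test could be made on 1 library per group, and every interval given here is a 95% interval for the error of counting and says nothing of how animals vary.

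Mef2 proteins are DNA-binding transcription factors that switch on genes of the sarcomere and of muscle metabolism. Class IIa HDACs bind Mef2 on DNA, have little deacetylase activity of their own, and repress by bringing in corepressors. Kinases that respond to calcium and other signals phosphorylate these HDACs, 14-3-3 proteins then hold them outside the nucleus, and Mef2 is freed. In skeletal muscle this switch is known for promoting slow, oxidative fibres when Mef2 is active, and Hdac4 and Hdac5 for responding to nerve activity.

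The Ctrl library held 3526 nuclei after filters, with a median of 2039.5 unique molecular identifiers (UMIs, each 1 captured RNA molecule) per nucleus. The cKO library held 3595 nuclei with a median of 1612 UMIs. Malat1, an abundant nuclear RNA, accounted for 25.5% of Ctrl UMIs and 30.7% of cKO UMIs. The libraries shared 5 barcodes. Levels are in CPM, the UMIs of a gene in a class of nuclei as a part of the UMIs of all genes there, on the usual counts-per-total scale. Myonuclei, the nuclei of the fibres, numbered 2980 in Ctrl and 3297 in cKO. They were classed by main myosin, the gene among Myh7 (slow), Myh2, Myh1 and Myh4 (fast) that took 60% or more of their summed UMIs, in nuclei with 3 or more. Myh7-main nuclei numbered 18 in Ctrl and 272 in cKO, Myh2-main nuclei 161 and 319, Myh1-main nuclei 287 and 372, and Myh4-main nuclei 1834 and 1380. Nuclei with at least 3 such UMIs and no main myosin were called hybrid, and those with fewer were undetermined. A neuromuscular junction (NMJ)-like cluster held 32 Ctrl and 36 cKO nuclei, with 11 of 12 markers detected. A myotendinous junction (MTJ)-like cluster, named for the fibre ends that meet the tendon, held 106 Ctrl and 93 cKO nuclei, with 7 of 8 markers detected. The other myonuclei are called the fibre body. The Myh7-main class rests on 18 Ctrl nuclei, 37676 UMIs in all, and its Ctrl values are correspondingly wide.

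All 7 genes were found in the GENCODE M21 annotation of GRCm38. Mef2a (ENSMUSG00000030557) lies on the minus strand at chr7:67231163-67372858. Mef2c (ENSMUSG00000005583) lies on the plus strand at chr13:83504034-83667080, and Mef2d (ENSMUSG00000001419) on the plus strand at chr3:88142372-88172086. The HDAC genes all lie on the minus strand. Hdac4 (ENSMUSG00000026313) is at chr1:91928779-92195699, Hdac5 (ENSMUSG00000008855) at chr11:102194432-102230166, Hdac7 (ENSMUSG00000022475) at chr15:97792664-97844502 and Hdac9 (ENSMUSG00000004698) at chr12:34047580-34917095. Hdac9 spans 869516 bases and overlaps 3 annotated genes of its own strand, Mef2a overlaps 2, and Hdac4 and Hdac5 overlap 1 each, where the counting could have split or dropped reads. Mef2c overlapped no annotated gene.

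Promoter windows of the 7 genes and of Mef2b, 14 windows in RefSeq on GRCm38.p6, were searched for the Mef2 consensus, the A/T-rich 10-base element that Mef2 proteins bind, on both strands. A window holds 250 bases before and 50 bases after an annotated start. The element was found in 2 of the 14 windows, 1 of Mef2a and 1 of Hdac5, against 3.19% of all 32851 windows. These windows are shown because they place the element beside the start of a Mef2 gene and of a Mef2 repressor gene, and the outer Hdac9 window because Hdac9 differed most between the libraries. Capitals mark the element. A match is a description of letters and not a binding site.
Mef2a, minus strand, chr7:67372809-67373108: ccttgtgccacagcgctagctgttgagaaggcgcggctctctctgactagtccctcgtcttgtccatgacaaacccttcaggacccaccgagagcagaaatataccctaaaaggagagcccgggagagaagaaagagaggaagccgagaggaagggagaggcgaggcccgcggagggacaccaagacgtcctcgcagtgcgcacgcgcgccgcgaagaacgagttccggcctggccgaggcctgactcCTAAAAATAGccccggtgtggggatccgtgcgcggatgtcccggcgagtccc
Hdac5, minus strand, chr11:102230123-102230422: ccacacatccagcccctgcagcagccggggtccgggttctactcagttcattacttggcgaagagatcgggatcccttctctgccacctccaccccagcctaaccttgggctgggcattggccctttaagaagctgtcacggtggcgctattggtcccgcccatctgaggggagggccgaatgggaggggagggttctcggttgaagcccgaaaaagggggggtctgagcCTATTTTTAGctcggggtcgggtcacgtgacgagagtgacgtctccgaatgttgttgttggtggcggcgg
Hdac9, minus strand, chr12:34917046-34917345: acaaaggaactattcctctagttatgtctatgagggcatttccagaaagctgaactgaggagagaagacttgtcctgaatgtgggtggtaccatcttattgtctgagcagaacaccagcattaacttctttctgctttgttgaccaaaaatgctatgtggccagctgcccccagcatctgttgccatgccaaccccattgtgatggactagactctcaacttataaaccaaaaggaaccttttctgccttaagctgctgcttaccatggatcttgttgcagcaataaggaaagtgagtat
The element began 2 bases before the Mef2a start and 20 bases before the Hdac5 start. No match was found in the Hdac9 window printed or in its other window, in the 3 windows of Mef2c, or in those of Mef2b, Mef2d, Hdac4 and Hdac7.

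Over all myonuclei, the question was whether the RNA of Mef2 factors and of their repressors differed between the cKO and Ctrl libraries. Hdac9 differed most, at 75.4 CPM in Ctrl (69.4 to 81.7, 591 UMIs) against 174 CPM in cKO (164 to 184, 1179 UMIs). As a log2 ratio of cKO over Ctrl this was 1.21 (1.06 to 1.35). Hdac5 was at 36.0 CPM in Ctrl against 57.0 CPM in cKO, giving a log2 ratio of 0.66 (0.44 to 0.89). Mef2d was at 144 CPM in Ctrl against 208 CPM in cKO, giving a log2 ratio of 0.54 (0.42 to 0.65). These genes are called higher in cKO, where a call means a log2 ratio of at least 0.5 either way, an interval off 0 and at least 100 UMIs over both groups. The 3 calls were made among 7 members, and 7.79% of the 7519 genes with enough UMIs were called higher. No member was called lower, a call made for 11.5% of genes.

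Hdac4 and Mef2a were lower in cKO without reaching the call. Mef2a went from 460 CPM in Ctrl (446 to 476) to 330 CPM in cKO (316 to 344), giving a log2 ratio of −0.48 (−0.56 to −0.40). Hdac4, the class IIa HDAC best known from denervated muscle, went from 683 CPM (665 to 701) to 550 CPM (533 to 568), giving a log2 ratio of −0.31 (−0.37 to −0.25). Mef2c had a log2 ratio of 0.08 (0.04 to 0.11), which became 0.17 when Malat1 and mitochondrial genes were left out of the totals and 0.16 with median-ratio scaling. Hdac7, whose RNA was sparse in fibres, had 78 Ctrl and 84 cKO UMIs, and its interval (−0.14 to 0.78) included 0. Both families held members on either side of 0. The median log2 ratio over all genes was −0.08. Of the genes tested, 97.8% had a lower log2 ratio than Hdac9, 94.7% a lower one than Hdac5 and 92.7% a lower one than Mef2d, whereas 12.4% lay below Mef2a.

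**Figure D1:**
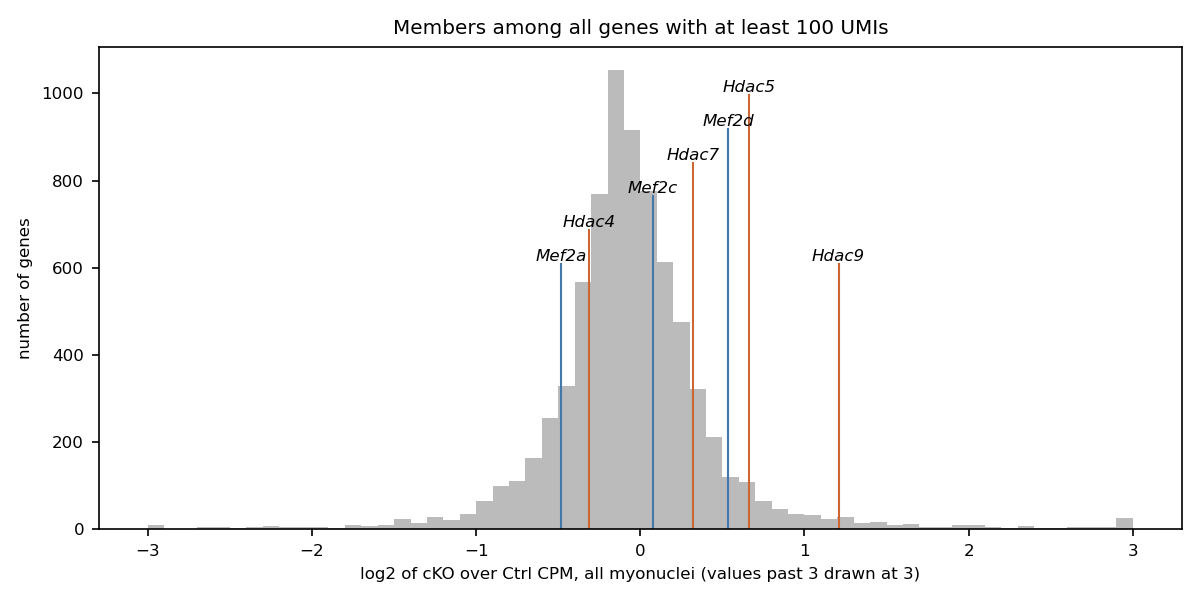
Number of genes (y axis) by log2 ratio of cKO over Ctrl CPM in all myonuclei (x axis) for the 7519 genes with at least 100 UMIs, with lines for the Mef2 genes in blue and the HDAC genes in orange. Hdac9 at 1.21, Hdac5 at 0.66 and Mef2d at 0.54 lie in the right flank, Mef2a at −0.48 and Hdac4 at −0.31 to the left, and Mef2c at 0.08 near the centre.

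The makeup of the libraries differed, with more Myh7-main and fewer Myh4-main nuclei in cKO, so the ratios were also formed with the Ctrl shares of the myosin and junction classes given to both libraries. Hdac9 then had a log2 ratio of 1.12 (0.97 to 1.27), Hdac5 of 0.56 (0.32 to 0.79) and Mef2d of 0.498 (0.38 to 0.62). The Mef2d value lay just under the limit of a call, as did 0.47 when CPM was averaged over nuclei. Mef2a was at −0.37 (−0.45 to −0.29), Hdac4 at −0.27 (−0.33 to −0.20) and Mef2c at 0.09 (0.05 to 0.13). Hdac7 was at 0.05 (−0.43 to 0.53). The direction of every member was the same as without fixed shares.

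**Figure D2:**
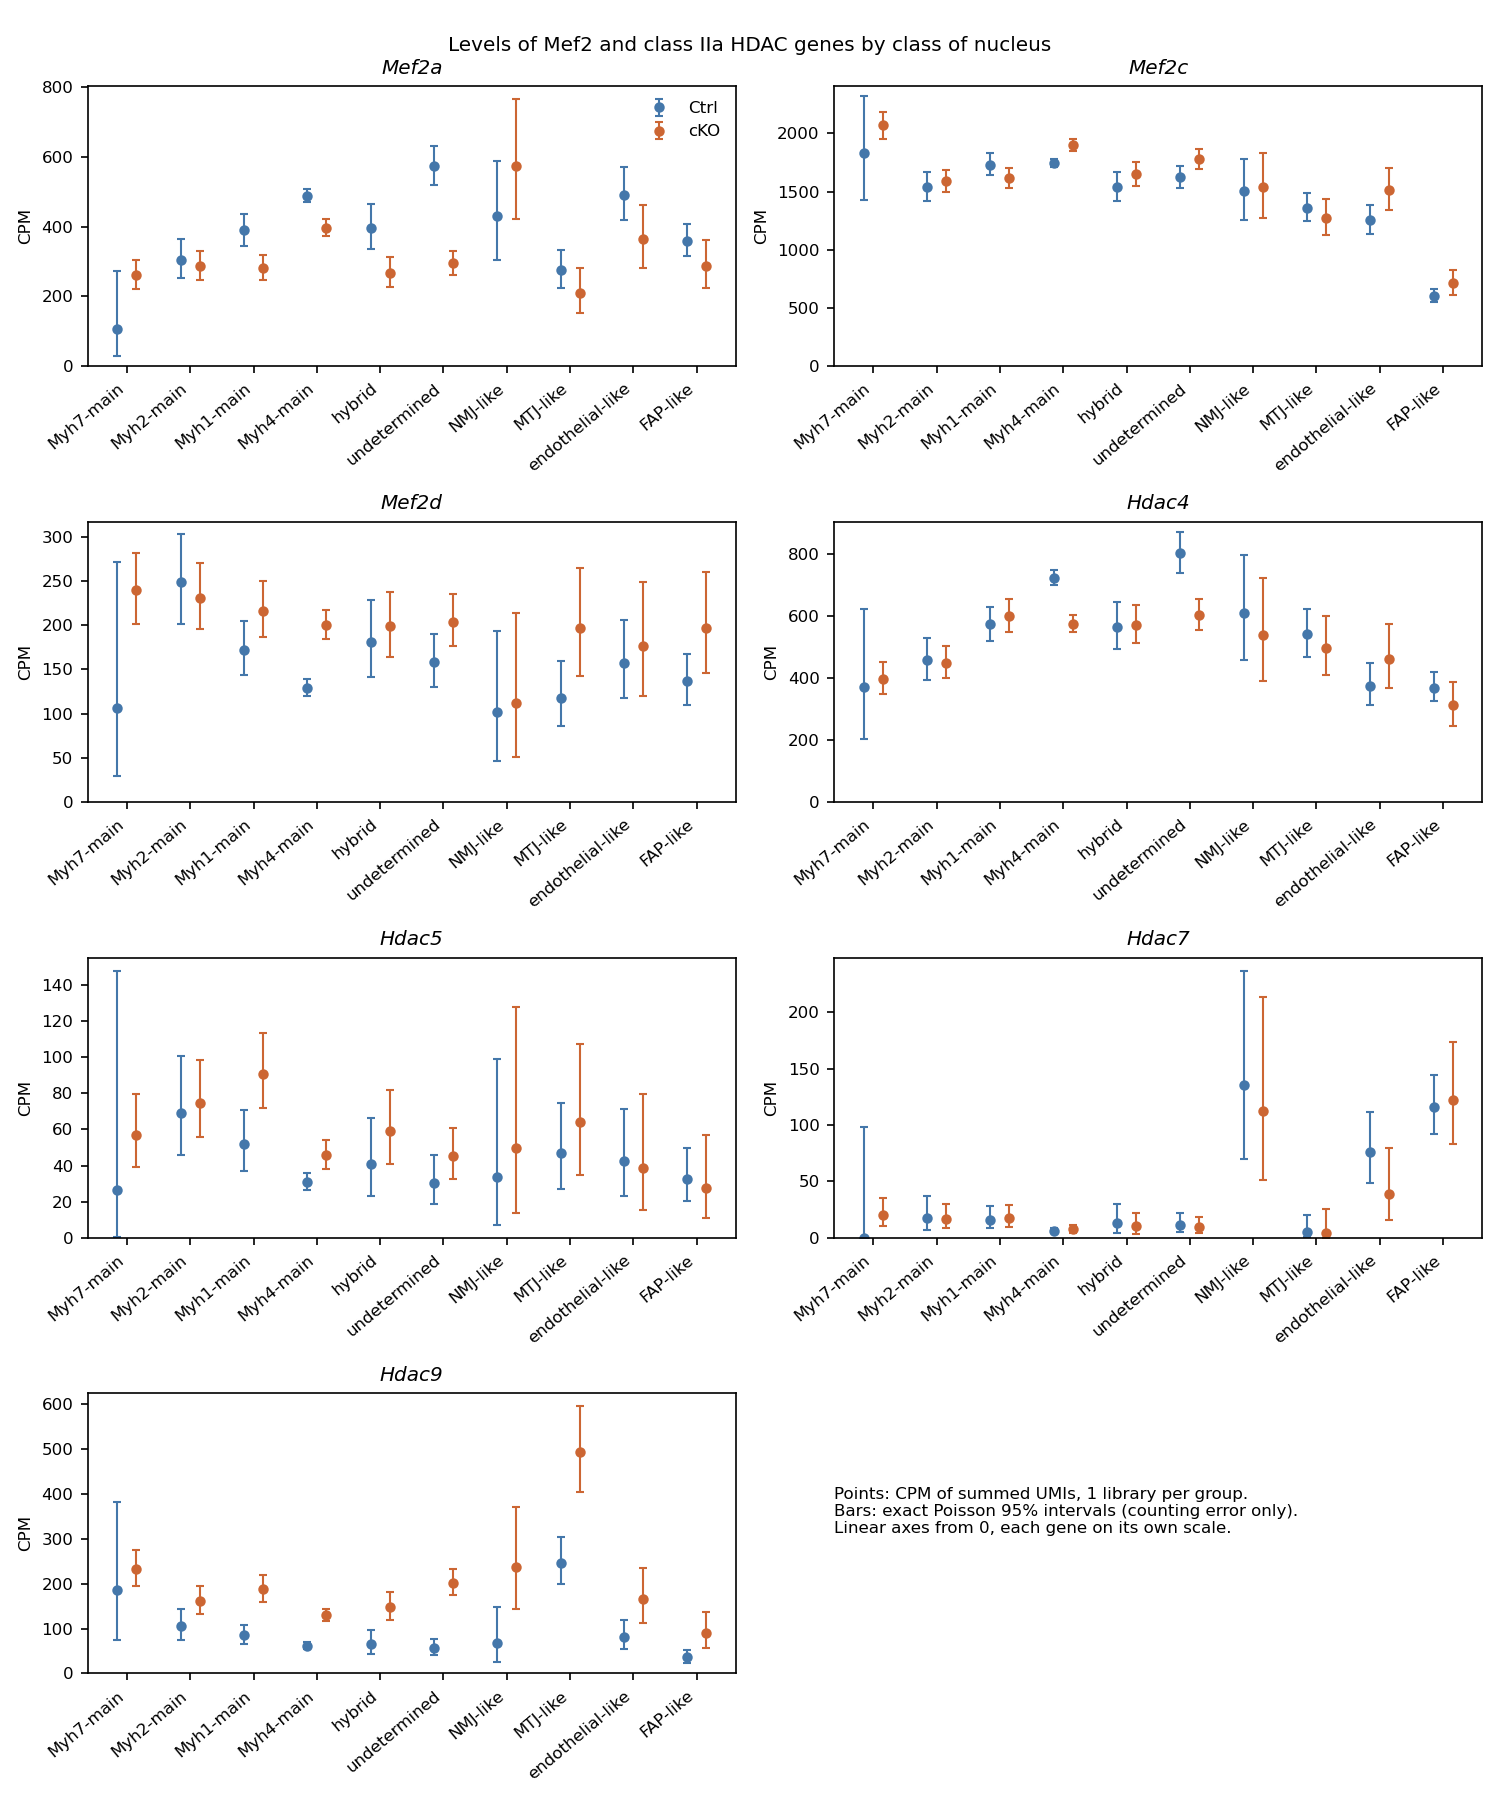
CPM (linear y axes from 0, one panel per gene) in 10 classes of nuclei (x axis) in Ctrl (blue) and cKO (orange), with bars for exact Poisson 95% intervals and 1 library per group. Hdac9 stands highest in MTJ-like nuclei at 247 CPM in Ctrl against 493 CPM in cKO, Hdac7 in NMJ-like and FAP-like nuclei, and Mef2c lowest in FAP-like nuclei.

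Hdac9, a class IIa HDAC that is also made as a short form without the catalytic domain, was higher in cKO in every myosin class by its point estimate. In Myh4-main nuclei it was at 62.0 CPM in Ctrl against 130 CPM in cKO, giving a log2 ratio of 1.07 (0.85 to 1.29). In Myh1-main nuclei it was at 85.3 and 187 CPM, giving a log2 ratio of 1.13 (0.71 to 1.58). In Myh2-main nuclei it was at 105 and 162 CPM, giving a log2 ratio of 0.62 (0.09 to 1.18). These intervals lay off 0, as did those of hybrid nuclei (1.16, 0.51 to 1.85) and undetermined nuclei (1.84, 1.35 to 2.36). In Myh7-main nuclei the level was 186 CPM in Ctrl from 7 UMIs and 233 CPM in cKO from 139 UMIs, and the depth was too low to detect a difference (log2 ratio 0.32, −0.76 to 1.67). The level was lowest in Myh4-main nuclei among the 4 myosin classes in both libraries. The share of fibre body nuclei with at least 1 Hdac9 UMI came to 12.7% in Ctrl (11.5 to 13.9) against 22.3% in cKO (20.9 to 23.8), although cKO nuclei had the lower median depth. After each nucleus was thinned to 500 UMIs these shares were 3.17% and 7.17%, and outside the fibres they were 2.20% and 5.70%.

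The difference in Hdac9 was also present outside the fibres. In fibro-adipogenic progenitor (FAP)-like nuclei, connective tissue cells in which the Cre driver is not active, Hdac9 was at 35.7 CPM in Ctrl (24 UMIs) against 90.6 CPM in cKO (23 UMIs), giving a log2 ratio of 1.34 (0.45 to 2.23). In endothelial-like nuclei, from vessel walls and with smooth muscle markers among them, it was at 81.7 and 165 CPM, giving a log2 ratio of 1.01 (0.22 to 1.82). Over all nuclei outside the fibres it was at 55.2 CPM in Ctrl against 125 CPM in cKO, giving a log2 ratio of 1.18 (0.64 to 1.72). Relative to all myonuclei, the nuclei outside the fibres had a log2 ratio of −0.45 (−0.85 to −0.07) in Ctrl and −0.48 (−0.88 to −0.10) in cKO for Hdac9. Myh4, a fibre gene, had −0.83 (−0.91 to −0.75) and −0.94 (−1.08 to −0.81) in the same comparison. Myh4 outside the fibres was at 1202 CPM in Ctrl against 1021 CPM in cKO, with up to 82 UMIs in 1 nucleus, and in all myonuclei at 2130.5 and 1963 CPM. The log2 ratio of cKO over Ctrl was −0.24 (−0.39 to −0.09) outside the fibres and −0.12 (−0.15 to −0.09) in myonuclei. The other fibre myosins were higher in cKO outside the fibres, as Hdac9 was. Myh7 went there from 10.7 to 178 CPM (12 and 84 UMIs), Myh2 from 121 to 210 CPM and Myh1 from 236 to 323 CPM. In all myonuclei Myh7 went from 27.3 to 413 CPM, Myh2 from 263 to 479 CPM and Myh1 from 527 to 744 CPM, so each of the 4 myosins had the same direction in both sets of nuclei. How much of the Hdac9 outside the fibres came from free RNA or from fibre nuclei was not tested.

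**Figure D3:**
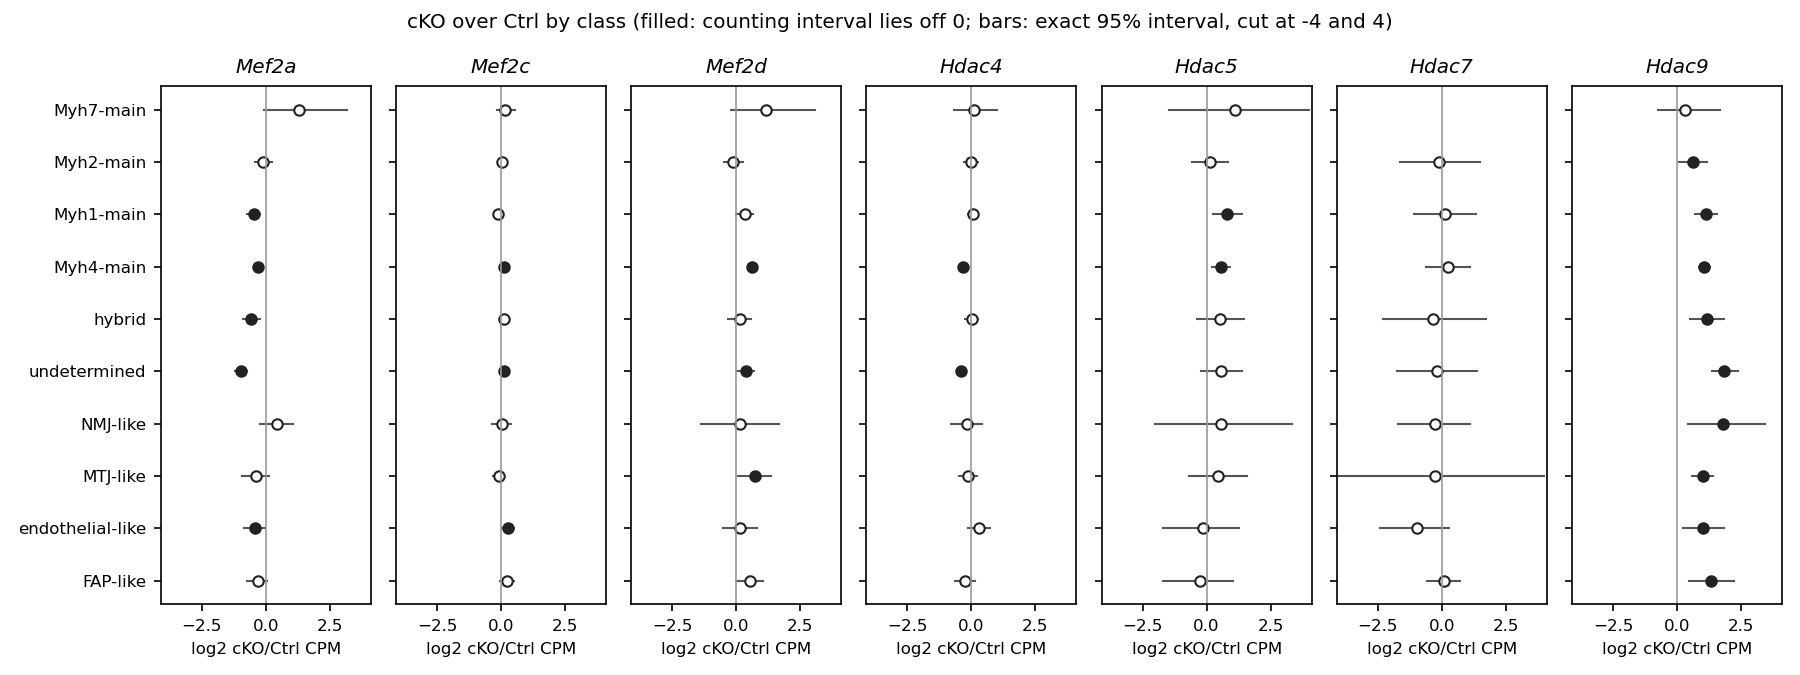
Log2 ratio of cKO over Ctrl CPM (x axis) by class of nucleus (y axis), one panel per gene, with exact 95% intervals drawn to −4 and 4 and filled points where the interval lies off 0. Hdac9 has filled points in every class but Myh7-main, the Hdac4 points of Myh4-main (−0.33) and undetermined nuclei (−0.41) are filled and left of 0, and Hdac7 has no point in Myh7-main nuclei, where Ctrl held 0 UMIs.

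Hdac4 and Mef2a, one from each family, had their highest values among the 4 myosin classes in Myh4-main nuclei, except that Hdac4 in cKO was at 599 CPM in Myh1-main and 574 CPM in Myh4-main nuclei, which overlapped. In Ctrl, Hdac4 was at 722 CPM in Myh4-main, 573 CPM in Myh1-main, 456 CPM in Myh2-main and 372 CPM in Myh7-main nuclei. Mef2a followed the same order at 488, 389, 305 and 106 CPM, the last from 4 UMIs. By myosin class, Hdac4 was lower in cKO in Myh4-main nuclei (log2 ratio −0.33, −0.42 to −0.25) and in undetermined nuclei (−0.41, −0.58 to −0.24). In Myh1-main nuclei it was 0.06 (−0.12 to 0.25), in Myh2-main nuclei −0.03 (−0.30 to 0.25) and in Myh7-main nuclei 0.09 (−0.68 to 0.99). The Myh2-main and Myh7-main intervals overlapped that of Myh4-main nuclei, and the difference between classes was not tested. Mef2a was lower in cKO in Myh4-main nuclei (−0.30, −0.40 to −0.20), Myh1-main nuclei (−0.47, −0.72 to −0.22), hybrid nuclei (−0.57, −0.89 to −0.24) and undetermined nuclei (−0.96, −1.18 to −0.74). In Myh2-main nuclei its log2 ratio was −0.09 (−0.43 to 0.25). The point estimate was above 0 in Myh7-main nuclei (1.30, −0.09 to 3.19, from 4 Ctrl UMIs) and in NMJ-like nuclei (0.42, −0.23 to 1.08). Outside the fibres Mef2a was lower in cKO (−0.28, −0.55 to −0.02).

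Among the fibre body clusters, both differences were largest in cluster 1. This cluster was led, over both libraries together, by Myh7 and other slow-fibre genes. It held 344 Ctrl and 954 cKO nuclei, although only 18 Ctrl nuclei had Myh7 as main myosin. There Mef2a was at 810 CPM in Ctrl against 291 CPM in cKO, giving a log2 ratio of −1.48 (−1.63 to −1.32). Hdac4 was at 1195 CPM in Ctrl against 615 CPM in cKO, giving a log2 ratio of −0.96 (−1.07 to −0.84). In cluster 0, the largest and led by Smox and Pfkfb3 with Myh4 among its leading genes, the log2 ratios were −0.18 (−0.29 to −0.06) for Mef2a and −0.25 (−0.35 to −0.15) for Hdac4. In cluster 2, led by Myh1, they were −0.49 (−0.71 to −0.27) and −0.26 (−0.44 to −0.09), so the Hdac4 interval lay below 0 there, whereas that of Myh1-main nuclei included 0. In cluster 3, led by Myh2, they were −0.16 (−0.46 to 0.13) and −0.21 (−0.45 to 0.03). In cluster 5, led by Sorcs1, they were −0.07 (−0.35 to 0.20) and −0.06 (−0.29 to 0.17). Hdac9 was higher in cKO in all 5 fibre body clusters, with log2 ratios from 0.71 in cluster 5 to 1.89 in cluster 1. At most 18 of the 344 Ctrl nuclei of cluster 1 were Myh7-main, and its makeup by library is not given here. Its Ctrl levels of Mef2a and Hdac4 lay above those of every Ctrl myosin class. Whether the cluster 1 ratios compare like nuclei was not tested.

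Mef2d and Hdac5 had the opposite order across fast classes in Ctrl. Mef2d was at 249 CPM in Myh2-main, 172 CPM in Myh1-main and 129 CPM in Myh4-main nuclei, and the counting interval of each step lay off 0. Hdac5 was at 69.2, 52.0 and 30.8 CPM in the same classes, of which Myh2-main and Myh1-main overlapped. In cKO the Mef2d levels were closer together, at 231, 216 and 200 CPM, since the log2 ratio of cKO over Ctrl was 0.63 (0.47 to 0.80) in Myh4-main and −0.11 (−0.48 to 0.27) in Myh2-main nuclei. Hdac5 was higher in cKO in Myh4-main nuclei (0.57, 0.22 to 0.91) and in Myh1-main nuclei (0.80, 0.23 to 1.40). The Hdac5 value in Myh4-main nuclei became −0.067 when a main myosin needed 10 UMIs instead of 3.

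Set against Myh4-main nuclei, Ctrl Myh2-main nuclei were called higher for Mef2d (log2 ratio 0.94, 0.62 to 1.25), Hdac5 (1.17, 0.52 to 1.76) and Hdac9 (0.76, 0.25 to 1.23), and lower for Mef2a (−0.68) and Hdac4 (−0.66). That is 5 of 6 members tested, where 16.8% of genes were called higher and 17.9% lower. In cKO the same comparison called only Hdac5 higher (0.71, 0.21 to 1.19) and none lower, where 14.8% of genes were called higher and 21.9% lower. Mef2a there was at −0.47 (−0.70 to −0.25), near the call. In cKO, Myh7-main against Myh4-main nuclei called Hdac9 higher (0.84, 0.54 to 1.12) and Mef2a (−0.61) and Hdac4 (−0.53) lower, where 15.0% of genes were called higher and 23.0% lower. Hdac7 was not tested in these counts, as it had fewer than 100 UMIs. In Ctrl it was at 16.0 CPM in Myh1-main and 6.28 CPM in Myh4-main nuclei, and in cKO at 17.4 and 7.44 CPM, with intervals of the log2 ratio off 0 in both libraries (1.35, 0.26 to 2.34, and 1.23, 0.17 to 2.25).

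In Ctrl, Mef2c was at 1747 CPM in Myh4-main, 1731 CPM in Myh1-main and 1543 CPM in Myh2-main nuclei, and Myh2-main nuclei lay below Myh4-main nuclei by their interval (log2 ratio −0.18, −0.30 to −0.06). In cKO, Myh1-main nuclei at 1614 CPM (−0.23, −0.32 to −0.15) and Myh2-main nuclei at 1589 CPM (−0.26, −0.35 to −0.16) both lay below Myh4-main nuclei at 1899 CPM. Malat1 in cKO was at 329776 CPM in Myh1-main, 338299 CPM in Myh2-main and 286501 CPM in Myh4-main nuclei, which enlarges both differences. The cKO level of Mef2c was highest in Myh7-main nuclei, at 2068 CPM (1955 to 2187), above Myh4-main nuclei by a log2 ratio of 0.12 (0.03 to 0.21). In Ctrl, Myh7-main nuclei were at 1831 CPM from 69 UMIs, and the interval against Myh4-main nuclei (−0.30 to 0.41) included both 0 and the cKO difference. Between the libraries, Mef2c in Myh7-main nuclei had a log2 ratio of 0.18 (−0.17 to 0.55). Malat1 made up more of the cKO total of this class (333858 CPM, Ctrl 228899), which makes the ratio smaller. The value and its interval therefore hold only for totals that include Malat1, and those without it are not given here. Mef2c was higher in cKO in Myh4-main nuclei (0.12, 0.07 to 0.17), and in Myh1-main nuclei the log2 ratio was −0.10 (−0.21 to 0.01). Malat1 was higher in cKO in both of these classes too. Outside the fibres Mef2c was lower than in all myonuclei, with log2 ratios of −1.01 (−1.10 to −0.91) in Ctrl and −0.75 (−0.88 to −0.62) in cKO. It was higher in cKO there as well, at 843 and 1061 CPM (0.33, 0.17 to 0.49), and in endothelial-like nuclei the log2 ratio was 0.27 (0.04 to 0.49).

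Hdac9 had its highest level at the myotendinous junction in both libraries. MTJ-like nuclei held 247 CPM in Ctrl (199 to 304, 90 UMIs), against 67.0 CPM in the fibre body, giving a log2 ratio of 1.88 (1.54 to 2.21). In cKO they held 493 CPM (405 to 595, 108 UMIs) against 162 CPM, giving a log2 ratio of 1.60 (1.30 to 1.89). The next class in Ctrl was Myh7-main nuclei, at 186 CPM from 7 UMIs, and the log2 ratio against it (0.41, −0.69 to 1.77) included 0. In cKO the next class was NMJ-like nuclei at 237 CPM, with a log2 ratio of 1.06 (0.34 to 1.84). Hdac9 UMIs were seen in 49 of 106 Ctrl MTJ-like nuclei (46.2%) and in 49 of 93 cKO nuclei (52.7%), with at most 8 UMIs in 1 nucleus. Hdac9 was the only member called higher in MTJ-like nuclei, where 7.77% of genes were in Ctrl and 8.39% in cKO. Because the clusters were built on these nuclei, this is a description. Mef2a was lower there in both libraries (log2 ratios −0.78 in Ctrl and −0.66 in cKO), and so was Mef2c (−0.33, −0.46 to −0.20, and −0.50, −0.68 to −0.33). Tenocyte markers, which would mark tendon cells, summed to 2.75 CPM in Ctrl and 0 in cKO MTJ-like nuclei, with 5 of 6 and 6 of 6 markers at 0. FAP markers in MTJ-like nuclei summed to 143 CPM (Ctrl) and 73.1 CPM (cKO). The fibre body had 65.4 and 44.0 CPM of them and FAP-like nuclei 5641 and 4892 CPM. Smooth muscle markers summed to 305 and 297 CPM in MTJ-like nuclei against 291 and 286 CPM in the fibre body, and endothelial markers to 54.9 and 36.5 CPM against 70.8 and 51.0 CPM. The part of these cells in the Hdac9 level of MTJ-like nuclei was not tested.

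Hdac7, known mainly from vessel walls and lymphocytes, was sparse in the fibre body, at 8.66 CPM in Ctrl against 11.4 CPM in cKO. NMJ-like nuclei held 135.5 CPM in Ctrl (70.0 to 237, 12 UMIs) against 112 CPM in cKO (51.4 to 213, 9 UMIs). Set against the fibre body, the log2 ratio was 3.97 (2.94 to 4.87) in Ctrl and 3.30 (2.11 to 4.30) in cKO. The UMIs came from 10 of 32 Ctrl and 7 of 36 cKO nuclei, with at most 2 in 1 nucleus, against 2.04% and 2.15% of fibre body nuclei with a UMI. NMJ-like medians of 2562 and 1877.5 UMIs exceeded the fibre body medians of 2124 and 1641. When junctional nuclei were taken by marker UMIs without clusters, 289 Ctrl and 168 cKO nuclei qualified and the log2 ratio was 0.27 (−0.33 to 0.83) in Ctrl and 0.87 (0.08 to 1.58) in cKO. Of those nuclei, 31 in Ctrl and 32 in cKO lay in the NMJ-like cluster. FAP-like nuclei held Hdac7 at 116 CPM in Ctrl against 122 CPM in cKO, and endothelial-like nuclei at 75.7 and 38.5 CPM. In NMJ-like nuclei, FAP markers summed to 147 CPM in Ctrl, with 6 of 10 seen, and to 12.5 CPM in cKO, with 1 of 10 seen, and Pdgfra, Col1a1 and Col1a2 were at 0 in both. Endothelial markers summed to 45.2 and 12.5 CPM, with 9 of 10 markers at 0 in each library, Pecam1 and Cdh5 among them. Smooth muscle markers summed to 327 CPM in Ctrl, with 3 of 9 seen, and to 237 CPM in cKO, with 1 of 9 seen, against 291 and 286 CPM in the fibre body, and Acta2, Tagln and Rgs5 were at 0 in both. Schwann cell and tenocyte markers were at 0 in both libraries, satellite cell markers at 0 and 12.5 CPM and adipocyte markers at 11.3 CPM and 0. Of the immune markers only Mrc1 was seen, at 214 CPM in Ctrl against 312 CPM in cKO. The part of these cells in the Hdac7 level was not tested. The other members differed less at the NMJ. Mef2a was called higher in cKO (log2 ratio 0.79, 0.34 to 1.22), where 8.62% of genes were, and no member with enough UMIs was in Ctrl, where 7.19% of genes were.

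The Mef2-to-HDAC balance was given as the Mef2 share, the UMIs of the 3 Mef2 genes as a percent of the UMIs of all 7. It compares classes and not amounts of the 2 families, since capture of 3′ ends differs between genes and RNA is not protein. Over all myonuclei, Ctrl had a share of 74.1% (73.5 to 74.6) and cKO of 74.5% (73.9 to 75.1), a difference of 0.46 points (−0.35 to 1.26). It was made of unlike parts, since Hdac9 took 9.37% of the HDAC UMIs in Ctrl and 21.9% in cKO, whereas Hdac4 took 84.9% and 69.3%. Without Hdac9 the difference was 3.02 points, and without Hdac4 it was −4.48 points.

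Within classes the balance differed in both directions. In Myh4-main nuclei the Mef2 share was 74.2% in Ctrl and 76.7% in cKO, a difference of 2.49 points (1.39 to 3.59), which turned to −2.82 points without Hdac4. In Myh1-main nuclei it was 75.9% in Ctrl and 70.3% in cKO, a difference of −5.69 points (−8.20 to −3.16). In Myh2-main nuclei the difference was −1.35 points (−4.58 to 1.95) and in Myh7-main nuclei 0.66 points (−7.31 to 10.3). In Ctrl, Myh2-main minus Myh4-main nuclei came to 2.16 points (−0.58 to 4.77) and Myh1-main minus Myh4-main to 1.72 points (−0.21 to 3.60), with 0 inside both intervals. In cKO, Myh1-main minus Myh4-main nuclei came to −6.46 points (−8.46 to −4.49). MTJ-like nuclei had the lowest share of all myonuclear classes in both libraries, at 67.6% in Ctrl (64.5 to 70.6) and 61.3% in cKO (57.3 to 65.2). Their difference from the fibre body was −6.75 points (−9.89 to −3.72) in Ctrl and −13.6 points (−17.7 to −9.67) in cKO, and the libraries differed by −6.29 points (−11.3 to −1.30). Without Hdac9 these differences were −1.26 points (−4.37 to 1.67) in Ctrl, −4.28 points (−8.40 to −0.46) in cKO and 0.060 points (−4.94 to 4.92) between the libraries. Without Hdac9 the Myh1-main difference between the libraries was −3.23 points (−5.69 to −0.75). NMJ-like nuclei were at 70.6% and 70.4%, with intervals against the fibre body that included 0.

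**Figure D4:**
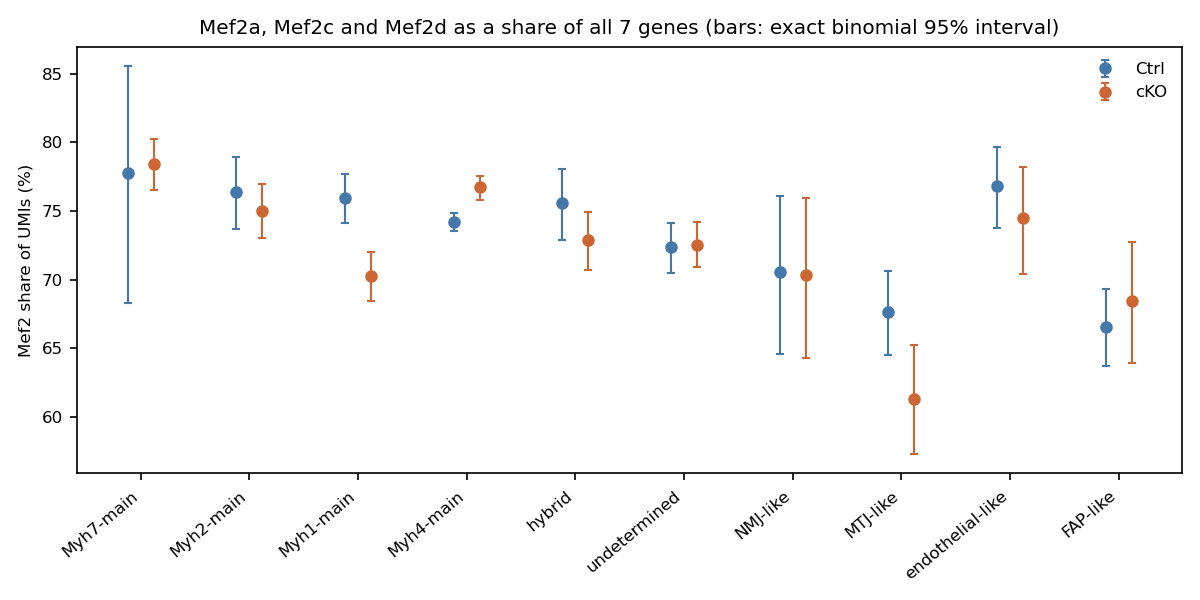
Mef2 share of the UMIs of all 7 genes (y axis, %, not drawn from 0) in 10 classes of nuclei (x axis) in Ctrl (blue) and cKO (orange), with exact binomial 95% intervals. The MTJ-like nuclei are lowest among myonuclei at 67.6% and 61.3%, and the libraries lie apart in Myh1-main and Myh4-main nuclei in opposite directions.

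The wider pathway was read from 9 lists of 106 genes, each counted once, of which 86 had enough UMIs. In all myonuclei 13 were called higher and 13 lower in cKO, where all genes had the shares of 7.79% and 11.5% given above, and the median log2 ratio was −0.01. Among the kinases that act on class IIa HDACs, 2 of 12 were called higher and 2 lower. Sik1, a salt-inducible kinase, was at 10.2 CPM in Ctrl against 31.0 CPM in cKO (log2 ratio 1.60, 1.23 to 1.99). Camk2d, a calcium/calmodulin-dependent kinase, was at 255 and 505 CPM (0.98, 0.90 to 1.06). Camk1d was lower, at 644 and 336 CPM (−0.94, −1.01 to −0.86), as was Sik2, at 168 and 105 CPM (−0.68, −0.82 to −0.55). Of the 14-3-3 genes, which hold phosphorylated HDACs outside the nucleus, Ywhaz (0.64) and Ywhaq (0.57) were called higher among 5 tested and none lower.

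Of 9 corepressor genes, 3 were called lower and none higher, among them Tbl1x (−0.63) and Hdac3 (−0.61), the deacetylase that class IIa HDACs bring in, and the list's median was −0.32. For this list and those that follow, 7.79% of all genes were called higher and 11.5% lower. Of the coactivators and partners, 1 of 11 was called higher and 1 lower. Vgll2, a muscle cofactor of Tead and Mef2, was at 15.2 CPM in Ctrl against 36.2 CPM in cKO (1.25, 0.93 to 1.58), and Tead4 at 113 and 36.9 CPM (−1.62, −1.83 to −1.41). Of 6 Mef2 kinase genes Map2k3, which activates p38, was called lower (−0.85), and of 9 calcineurin pathway genes Ppp3ca, a catalytic subunit gene, was called lower (−0.53). The other catalytic subunit genes of that list were not called. Of 4 other HDAC genes tested only Hdac3 was called.

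Of 24 genes known as targets of Mef2 in muscle, 7 were called higher and 3 lower, and the list's median was 0.21. Over all genes 7.79% were called higher and 11.5% lower. Myoz2, a Z-disc protein of slow fibres, was at 52.7 CPM in Ctrl against 179 CPM in cKO (log2 ratio 1.77, 1.61 to 1.93). Nr4a1, an activity-dependent nuclear receptor, was at 29.5 and 67.5 CPM (1.20, 0.96 to 1.43). Hspb7, a small heat shock protein (0.86), and Klhl41, a thin-filament regulator (0.80), were called higher, and so were 3 more, Klhl40, Lmod3 and Myoz3. The 3 called lower were Myom2 of the M-band (−0.79), Myoz1 of fast-fibre Z-discs (−0.75) and Pygm, muscle glycogen phosphorylase (−0.60). Myoz1 and Myoz2 mark fast and slow fibres, and the share of Myh7-main nuclei differed between the libraries as given above. Of 7 genes of the Hdac4 response to denervation tested, Ncam1 was called higher (0.99), Musk (−0.69) and Runx1 (−0.51) were called lower, and Myog, with 11 and 16 UMIs, was too sparse to test.

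**Figure D5:**
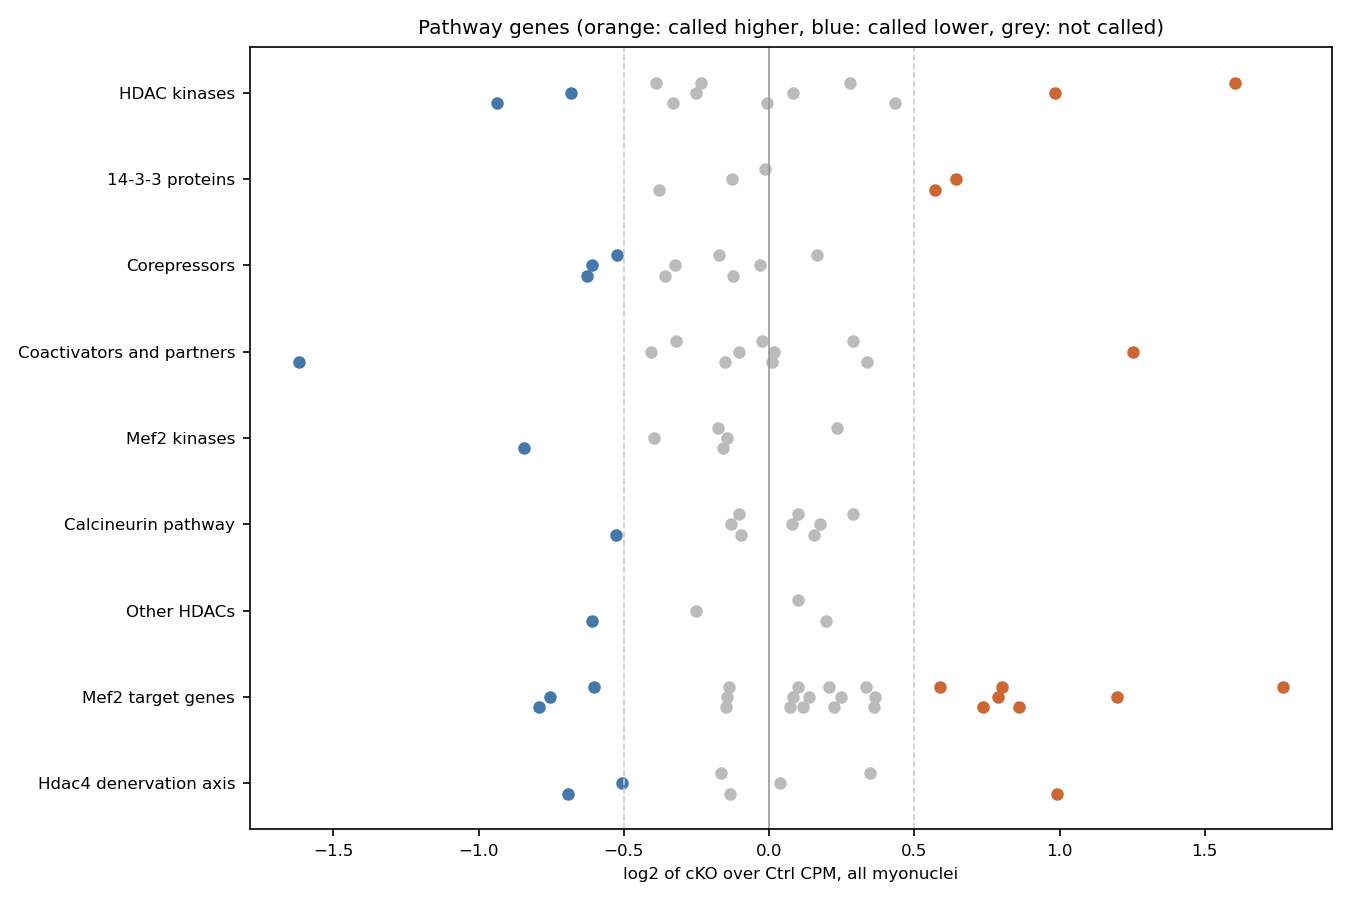
Log2 ratio of cKO over Ctrl CPM in all myonuclei (x axis) for each gene with enough UMIs in 9 pathway lists (y axis), with called genes in orange (higher) and blue (lower) and dashed lines at −0.5 and 0.5. The corepressors lean left with a median of −0.32, and the Mef2 target genes right with a median of 0.21 while spreading from −0.79 to 1.77.

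The genes most like each member were sought among 3734 genes over 20 groups of nuclei, the classes in each library with enough UMIs, by Pearson correlation of log2(CPM + 10). The groups share libraries, and groups outside the fibres take part, so the values are descriptions. Mef2c was most like Mlip (r = 0.93), a muscle lamin-interacting protein, Ldb3 (0.93), a Z-disc protein, and Prkcq (0.91). Hdac7 was most like Plpp3, Rbms3 and Plcb4 (each 0.90). Hdac9 was most like Eprs (0.84), Stau2 (0.77) and Akap6 (0.77). Mef2a was most like Rap1gds1, Pon3 and Cnot4 (0.84 to 0.85), and Hdac4 most like Tnik (0.85), Rbfox1 (0.84) and Pstpip2 (0.82). Mef2d was most like Cyb5b (0.90), Hadhb (0.84) and Abhd18 (0.81), and Hdac5 most like Hspa4 (0.85), Mfn2 (0.78) and Mpc1 (0.76).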

How the data were processed

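The authors processed the reads with Cell Ranger 3.1.0 on mm10/GRCm38 at default settings and deposited raw UMI counts per gene and barcode for each library. How intronic reads were counted and which gene annotation was used were not given in the sources used here, and the labels name an older kit than the study's methods. The libraries held 10410316 (Ctrl) and 8446070 (cKO) UMIs.

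Nuclei with at least 100 genes, 500 UMIs and at most 10% mitochondrial UMIs were kept. Scrublet (scanpy 1.11.5) marked 0 doublets, so the 8% of nuclei with the highest score per library were removed. Nuclei were clustered with Seurat 5.3.0 and sctransform 0.4.2 in R 4.3.3 (3000 integration features, 25 principal components, resolution 0.3). A cluster was named from at least 3 detected markers (at least 10 UMIs and 2 times the level elsewhere). A further condition on Ttn for clusters outside the fibres was dropped after the data were seen, because it left endothelial, immune and satellite cell clusters among myonuclei. The immune and satellite cell clusters were counted outside the fibres only.

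Raw counts were summed per class and library. Intervals (95%) were exact for each quantity (Poisson for CPM, Clopper-Pearson for shares, conditional binomial for ratios), and differences of shares combined both exact intervals. The interval at fixed class makeup used a normal approximation of the counting error. They were computed with Python 3.11.15, numpy 2.4.6, scipy 1.17.1 and pandas 2.3.3 and tested on simulated data. Named genes were the members, up to 4 called genes per pathway list by size (beyond these, genes named to account for a count of 5 or fewer or a list's key gene were chosen after their values were seen), and the 3 genes most like each member among those with at least 500 UMIs. The members and all lists were chosen with earlier results of these data known. The alternatives tried were doublets kept, 1000 UMIs per nucleus, other scalings, myosin limits, weights and class definitions. The value of 1 gene of the corepressor list is not reported here.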

Additional observations from a re-analysis of the deposited data

How the results depend on the processing

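Over 22 main results and 131 alternatives, 106 values stayed within their counting interval and the others moved past it. Of 562 alternatives for 90 class and gene values, 519 stayed within it. Where the interval of the reported value lay off 0 (98 and 318 alternatives), 1 main result and 2 class values changed sign, namely the Myh4-main share difference without Hdac4, Hdac5 in Myh4-main nuclei, and the MTJ-like share difference between libraries, at 0.060 points without Hdac9. Values whose interval included 0 also changed sign, among them the share difference over all myonuclei. When the totals excluded Malat1 and mitochondrial genes, the log2 ratio of cKO over Ctrl in all myonuclei was −0.38 for Mef2a, 0.17 for Mef2c and −0.21 for Hdac4, and with fixed class makeup 0.16 for Mef2c and −0.19 for Hdac4. With median-ratio scaling it was −0.40, 0.16 and −0.23. Mef2c was at 0.14 when CPM was averaged over nuclei, and over all filtered nuclei without clusters Mef2c was at 0.13 and Hdac7 at −0.27. With clusters in place of myosin classes, Hdac4 at fixed makeup was at −0.34. The Mef2 share difference in all myonuclei was 1.96 points without Mef2a, −2.49 without Mef2c, −4.48 without Hdac4 and 3.02 without Hdac9. In Myh4-main nuclei it was 3.93, 1.17, −2.82 and 4.22 points in the same order. A call at a log2 ratio of 1 left 4 pathway genes higher and 1 lower. Hdac5 in Myh4-main nuclei was at −0.067 with a minimum of 10 myosin UMIs. With junctional nuclei taken by marker UMIs, Hdac7 at the NMJ was at 0.27 in Ctrl and 0.87 in cKO, and Hdac9 at the MTJ at 1.27 in cKO. Apart from removed members, fewer or other nuclei and other totals, the cause was not tested. The log2 ratios of Hdac9, Hdac5 and Mef2d over all myonuclei stayed within their intervals under each alternative, including the Ttn condition as first written, which was added after the data were seen. At the depth of Hdac7 (78 and 84 UMIs) and of the Ctrl Myh7-main class (37676 UMIs) the intervals were wide. No paired analysis was possible because each group had 1 library.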
